A study of Homo sapiens and Mus musculus with 15 samples.

Results

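Cholesterol and fatty acid synthesis genes were followed through 3 experiments on the retinal pigment epithelium (RPE), the pigmented cell layer behind the photoreceptors. The set held 32 human genes chosen by name, 23 of the sterol branch and 9 of the fatty acid branch, out of 61071 genes in the ARPE-19 table. Their mouse counterparts numbered 33, because SCD has the mouse forms Scd1 and Scd2, out of 56832 genes in the mouse bulk table and 32285 in the single-cell counts. They were chosen by name, with earlier results of these data known, and all 32 human and all 33 mouse members passed the filters on low values.

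ARPE-19 is an established human RPE cell line, and its RNA was sequenced in 3 groups of 3 libraries. Control cells carrying control vectors grew on plastic (plastic control) or on a compliant gel of 1.5 kPa (soft control), and cells overexpressing YAP-HA, an HA-tagged form of the transcriptional coactivator YAP, grew on the same gel (YAP-HA). The mouse bulk libraries came from eye cups of old C57BL/6J mice, 2 from mice given no TRULI and 2 from mice given TRULI, an inhibitor of the LATS kinases that phosphorylate and restrain YAP. Their age is labelled only as old, and the dose and the number of mice per library are not given in the sources used here. The single-cell libraries held dissociated cells from eyes of C57BL/6J mice, 1 library at 3 months and 1 at 24 months. A condition label of the 3-month library reads old, against its age and title, which were followed. Nothing in the labels says whether the bulk replicates were separate cultures or separate animals, so p-values measure only the spread between these libraries, which may be technical.

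Cells make cholesterol from acetyl-CoA through mevalonate, farnesyl pyrophosphate, squalene and lanosterol, and make fatty acids by carboxylating acetyl-CoA, elongating the chain and inserting double bonds. The transcription factors SREBP-1 and SREBP-2, encoded by SREBF1 and SREBF2, drive both branches. The escort protein SCAP carries them to the Golgi for cleavage when membrane sterol is low, and INSIG1 holds them back when sterol is high. INSIG1 and most of the enzymes are themselves SREBP targets. In the eye the RPE takes up lipid from shed photoreceptor membranes and from the blood, and it also exports lipid.

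Bulk values are TPM, transcript abundances that are scaled to transcript length and keep no record of sequencing depth, so the depth of those libraries is unknown. YAP1, the overexpressed gene, was listed at 115 to 126 TPM in plastic control, 55.9 to 77.3 in soft control and 2209 to 2469 in YAP-HA libraries, so every library followed its label. Of 3 YAP targets, CCN2 was at 456 to 476, 147 to 156 and 171 to 197 TPM in the same order and CCN1 at 1138 to 1193, 816 to 842 and 941 to 993, and both rose in YAP-HA against soft control (0.25 and 0.21). ANKRD1 went the other way, at 140.2 to 168, 168 to 183 and 98.1 to 106 TPM, and fell in YAP-HA against soft control, -0.79 ± 0.07 (adjusted p = 1.77e-05). The RPE genes RPE65, TTR and RGR were listed at 0 in all 9 ARPE-19 libraries. MITF, an RPE transcription factor, was at 12.6 to 13.9 TPM on plastic, 3.20 to 3.96 in soft control and 9.93 to 11.5 in YAP-HA libraries. Centring each library on its median gene moved the median of all genes in soft against plastic control by 0.11 on the log2 scale, from -0.04 to 0.07. The share of called genes that were higher then went from 44.8% (3307 higher, 4076 lower) to 58.1% (4458 higher, 3219 lower) in that comparison. In YAP-HA against plastic control it went from 41.3% (2073 higher, 2946 lower) to 56.2% (2978 higher, 2320 lower).

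The upstream sequences of these genes are shown because SREBPs bind sterol regulatory elements next to sites for NF-Y, which reads the CCAAT box, and Sp1, which reads the GC box. RefSeq windows from 250 bases before to 50 bases after the annotated start were found for 28 of the 32 members on GRCh38.p14, 40 windows in all. FASN, SQLE, FDFT1 and ACAT2 had no window. On both strands, the sterol regulatory element core TCACNCCA was present in 3 of 40 member windows (7.5%) against 3.95% of all 35116 windows. CCAAT was present in 26 (65.0%) against 34.6%, and the GC box GGGCGG in 35 (87.5%) against 45.0%. Among the 27 windows of the sterol branch 19 held CCAAT (70.4%), and among the 13 of the fatty acid branch 7 did (53.8%). No matches of different motifs overlapped. The core was found in the windows of MSMO1, MVK and SREBF2, starting 156, 195 and 133 bases before the start of transcription. The 250 bases before the start are printed below for those 3 genes and for HMGCS1, DHCR7 and SCD, whose expression is described further on. HMGCS1 and DHCR7 each have another annotated start, whose window held 0 CCAAT matches. For them the window with more CCAAT matches was printed. Capitals mark the core and CCAAT, the latter also in its reverse-strand spelling ATTGG. All are written on the strand of the gene. MSMO1 (chr4:165327419-165327668, plus strand), MVK (chr12:109573544-109573793, plus strand), SREBF2 (chr22:41832855-41833104, plus strand), HMGCS1 (chr5:43313413-43313662, minus strand), DHCR7 (chr11:71448394-71448643, minus strand) and SCD (chr10:100346983-100347232, plus strand) follow in that order.
MSMO1: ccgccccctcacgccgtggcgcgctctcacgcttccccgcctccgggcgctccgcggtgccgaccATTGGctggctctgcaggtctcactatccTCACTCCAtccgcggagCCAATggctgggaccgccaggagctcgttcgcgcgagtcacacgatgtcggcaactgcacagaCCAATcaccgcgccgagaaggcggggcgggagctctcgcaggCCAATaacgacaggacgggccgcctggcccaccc
MVK: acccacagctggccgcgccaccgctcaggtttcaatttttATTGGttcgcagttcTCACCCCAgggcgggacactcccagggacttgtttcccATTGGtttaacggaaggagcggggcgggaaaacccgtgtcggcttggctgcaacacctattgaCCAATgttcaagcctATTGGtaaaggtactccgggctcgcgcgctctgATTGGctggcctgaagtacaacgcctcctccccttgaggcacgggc
SREBF2: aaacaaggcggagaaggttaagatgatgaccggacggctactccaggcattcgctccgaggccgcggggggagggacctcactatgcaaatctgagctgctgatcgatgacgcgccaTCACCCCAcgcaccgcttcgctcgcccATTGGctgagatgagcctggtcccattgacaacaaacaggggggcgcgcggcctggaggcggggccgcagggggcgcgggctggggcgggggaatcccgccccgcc
HMGCS1: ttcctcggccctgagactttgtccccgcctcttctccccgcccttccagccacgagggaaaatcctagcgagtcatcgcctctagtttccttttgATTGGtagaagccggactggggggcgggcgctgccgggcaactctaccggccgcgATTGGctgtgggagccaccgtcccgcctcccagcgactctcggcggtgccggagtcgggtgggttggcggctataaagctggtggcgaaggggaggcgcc
DHCR7: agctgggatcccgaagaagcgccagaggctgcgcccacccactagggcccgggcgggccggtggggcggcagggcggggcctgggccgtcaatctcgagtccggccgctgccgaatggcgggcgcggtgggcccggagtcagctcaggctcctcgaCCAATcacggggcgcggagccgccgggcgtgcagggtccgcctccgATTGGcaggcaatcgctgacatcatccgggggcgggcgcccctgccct
SCD: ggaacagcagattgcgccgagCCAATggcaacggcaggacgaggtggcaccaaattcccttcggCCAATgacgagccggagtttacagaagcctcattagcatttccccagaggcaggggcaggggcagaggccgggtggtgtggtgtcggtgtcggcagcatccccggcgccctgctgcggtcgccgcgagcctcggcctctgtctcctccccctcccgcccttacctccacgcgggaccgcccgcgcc
MSMO1 and MVK thus each carried the core together with several CCAAT boxes, and SREBF2 carried the core with a single CCAAT box. HMGCS1, DHCR7 and SCD each carried CCAAT without the core in the printed window, which for HMGCS1 and DHCR7 was picked by its CCAAT matches. A match of letters is a description and not a site shown to be bound.

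On soft gel the branches of control ARPE-19 cells moved apart. Of 23 sterol branch genes, 14 rose in soft against plastic control, 4 fell and 5 did not pass the test, and their median log2 fold change was 0.39. The 4 that fell were SREBF2, SCAP, DHCR7 and STARD4, of which SCAP and DHCR7 were lost with centred libraries and in 5 of 6 fits that left out 1 library (all but the one without soft control replicate 1), leaving 2. Of 9 fatty acid branch genes, 0 rose, 5 fell and 4 did not pass, with a median of -0.41. Over all 14606 genes tested 22.6% rose and 27.9% fell, with a median of -0.04. Fold changes here and below are differences of mean log2(TPM + 1), so the change of a weakly expressed gene is understated, and calls are at an adjusted p under 0.05 (limma, Benjamini-Hochberg over all genes tested). By role, 6 of 7 genes from acetyl-CoA to farnesyl pyrophosphate rose and 0 fell, 7 of 11 from squalene to cholesterol rose and 1 fell, and 3 of 4 regulators fell, or 2 where SCAP was lost. With centred libraries 17 members rose and 7 fell, against 14 and 9 as deposited. In bulk RNA, fewer cells of a type and less RNA per cell cannot be told apart.

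YAP-HA cells on the same gel were higher than soft control for 20 of the 32 members and lower for 2. Of the sterol branch 12 genes rose, 2 fell and 9 did not pass, with a median log2 fold change of 0.20. Of the fatty acid branch 8 rose, 0 fell and 1 (FADS1) did not pass, with a median of 0.67. Among all genes tested 24.5% rose and 23.9% fell, with a median of 0.01. The genes from acetyl-CoA to farnesyl pyrophosphate rose in 6 of 7 cases, and PMVK fell. From squalene to cholesterol 3 of 11 rose, FDFT1, LSS and DHCR7, and 8 did not pass. Of the 4 regulators 3 rose, and SCAP did not pass.

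Set against plastic control, which differs in both surface and transgene, YAP-HA cells were higher for 16 of 23 sterol branch genes and lower for 0, with a median of 0.59. Of the fatty acid branch 5 rose and 1 fell, with a median of 0.25. Leaving out 1 library changed the 5 to 3, with ACACA and ACSS2 lost, or to 4 without plastic control replicate 3, with ACACA lost. The background was 14.2% higher and 20.2% lower, with a median over all genes of -0.05. This comparison shares its libraries with the other 2, and they share soft control with each other, so their values are given side by side and are not independent.

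**Figure D1:**
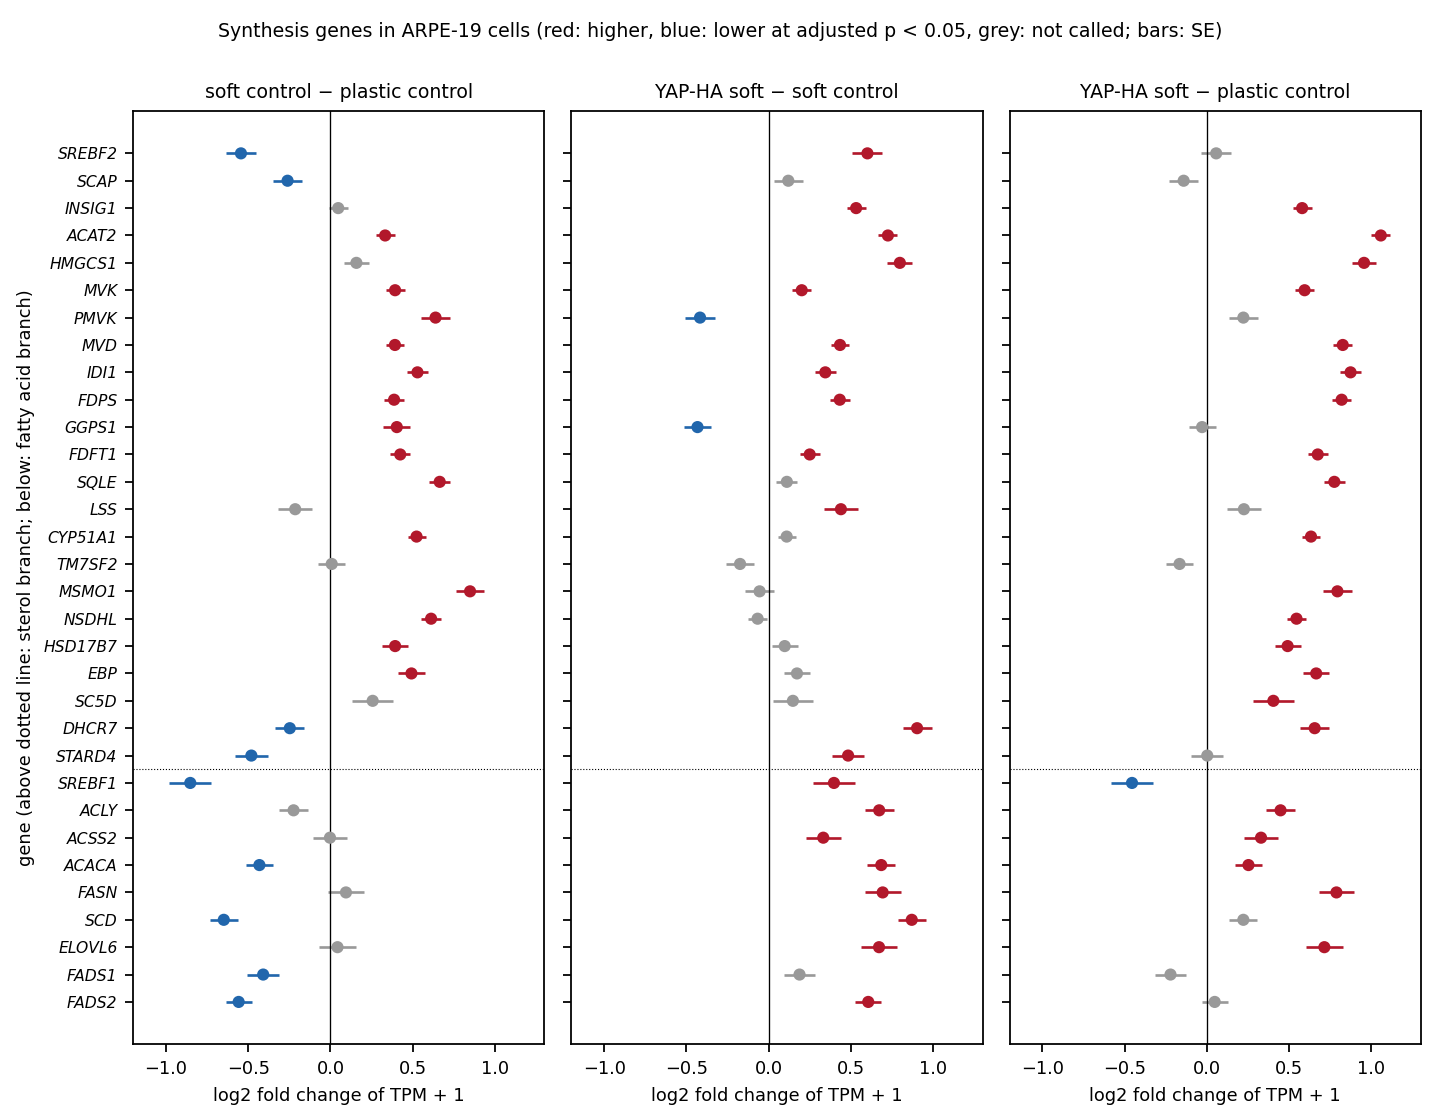
Log2 fold change of TPM + 1 (x axis, bars are SE) for each of the 32 genes (y axis, sterol branch above the dotted line) in the 3 ARPE-19 comparisons, red for higher, blue for lower and grey for not called. In the left panel most sterol genes lie right of 0 and 7 of 9 fatty acid genes lie left of it, and in the middle panel all 9 fatty acid genes lie right of 0.

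Summed over the branch, sterol transcripts made up 2023, 2051 and 2069 TPM in the plastic control libraries, 2519, 2524 and 2589 in soft control and 3179, 3320.4 and 3322 in YAP-HA. Every soft control library lay above every plastic one and below every YAP-HA one. Fatty acid transcripts summed to 1065, 1069.5 and 1105 TPM in plastic control, 919, 728 and 785 in soft control and 1197, 1230.3 and 1269 in YAP-HA. Here soft control was the lowest group and plastic control lay in the middle. Within soft control, replicate 2 was the lowest for 9 of 9 fatty acid genes and replicate 1 the highest for 7 of 9. All genes leaned the same way, with a median log2 deviation within the group of 0.05 in replicate 1 and -0.05 in replicate 2. For the members of both branches together these medians were 0.07 and -0.05. The sterol sums of replicates 1 and 2 lay close together, at 2519 and 2524 TPM, while the fatty acid sums were 919 and 728 TPM. Deviations of the fatty acid branch alone are not given here, and the cause of its spread was not tested.

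Of the 4 regulators, 3 fell in soft against plastic control, and INSIG1 did not pass. SREBF1, which encodes the factor most tied to fatty acid synthesis, was at 39.4, 38.2 and 36.5 TPM in plastic control, 22.7, 16.4 and 23.5 in soft control and 24.5, 27.6 and 30.6 in YAP-HA libraries. No groups overlapped, plastic control was highest and soft control lowest. Its log2 fold change was -0.85 ± 0.13 (adjusted p = 0.000523) in soft against plastic control, 0.40 ± 0.13 (adjusted p = 0.0267) in YAP-HA against soft control and -0.46 ± 0.13 (adjusted p = 0.0202) in YAP-HA against plastic control. The last 2 calls were fragile. Without soft control replicate 2 the YAP-HA difference from soft control was 0.24 (adjusted p = 0.0721, limma) and did not pass, and it was also lost without YAP-HA replicate 2 or 3. The difference from plastic control was lost without plastic control replicate 1 or 2 or YAP-HA replicate 1 or 2, at adjusted p-values of 0.0518 to 0.0766 (limma).

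SREBF2, which encodes the factor most tied to cholesterol synthesis, was at 101, 101 and 104 TPM in plastic control, 78.5, 62.3 and 69.0 in soft control and 96.5, 106 and 117 in YAP-HA libraries. Soft control lay below both other groups, which overlapped each other. The log2 fold change was -0.54 ± 0.09 (adjusted p = 0.000906) in soft against plastic control, 0.60 ± 0.09 (adjusted p = 0.000425) against soft control in YAP-HA cells and 0.06 ± 0.09 (adjusted p = 0.667) against plastic control in them. SREBF2 thus fell in the comparison in which 14 sterol branch genes rose. SCAP, the escort protein, was at 30.9, 30.8 and 29.3 TPM on plastic, 28.0, 24.8 and 22.8 in soft control and 25.8, 26.4 and 30.1 in YAP-HA libraries. Its fold change in soft against plastic control was -0.26 ± 0.09 (adjusted p = 0.0316), a call that was lost with centred libraries (-0.15, adjusted p = 0.137, limma) and in 5 of 6 fits that left out 1 library (all but the one without soft control replicate 1). Against soft control its value in YAP-HA cells was 0.12 ± 0.09 (adjusted p = 0.289), and against plastic control -0.14 ± 0.09 (adjusted p = 0.243).

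INSIG1, which retains the SREBPs and is one of their targets, was at 70.6, 70.9 and 75.2 TPM in plastic control, 78.6, 72.3 and 73.1 in soft control and 106, 112 and 107 in YAP-HA libraries. The control groups overlapped, and YAP-HA lay above both. The log2 fold changes were 0.05 ± 0.06 (adjusted p = 0.521), 0.53 ± 0.06 (adjusted p = 4.89e-05) and 0.58 ± 0.06 (adjusted p = 5.03e-05) in soft against plastic, YAP-HA against soft and YAP-HA against plastic control. With centred libraries the first of these was 0.16 and passed (adjusted p = 0.0341, limma).

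The arm from acetyl-CoA to farnesyl pyrophosphate showed the largest rises in YAP-HA cells against plastic control. ACAT2, the cytosolic thiolase that joins acetyl-CoA units, was at 130.0, 123 and 133 TPM in plastic control, 154, 171 and 162 in soft control and 271, 275 and 261 in YAP-HA libraries. The groups rose in that order without overlap, with fold changes of 0.33 ± 0.06 (adjusted p = 0.00109) in soft against plastic, 0.72 ± 0.06 (adjusted p = 5.79e-06) in YAP-HA against soft and 1.06 ± 0.06 (adjusted p = 7.25e-07) in YAP-HA against plastic control. HMGCS1, the synthase of the next step, was at 197, 205 and 199 TPM, 244, 201 and 228 TPM and 379, 372 and 418 TPM in the same groups. Soft control overlapped plastic control, and YAP-HA stood apart from both. The fold changes were 0.16 ± 0.08 (adjusted p = 0.107), 0.80 ± 0.08 (adjusted p = 2.00e-05) and 0.95 ± 0.08 (adjusted p = 1.02e-05) in the same comparisons. The first of them passed without soft control replicate 2 (0.24, adjusted p = 0.0212, limma) and with centred libraries (0.27, adjusted p = 0.00377).

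PMVK, the phosphomevalonate kinase, had another order. It was at 36.9, 35.5 and 37.7 TPM in plastic control, 50.6, 63.6 and 59.5 in soft control and 41.6, 46.8 and 40.6 in YAP-HA libraries, so that soft control was the highest group. Its fold change was 0.64 ± 0.09 (adjusted p = 0.000353) in soft against plastic, -0.42 ± 0.09 (adjusted p = 0.00343) in YAP-HA against soft and 0.22 ± 0.09 (adjusted p = 0.0816) in YAP-HA against plastic control. GGPS1, which makes geranylgeranyl pyrophosphate for protein prenylation on a side branch, was also highest in soft control, with fold changes of 0.40, -0.43 (adjusted p = 0.00173, limma) and -0.03. PMVK and GGPS1 were the only 2 members that fell in YAP-HA against soft control.

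The remaining enzymes of the arm rose in all 3 comparisons. MVD, the decarboxylase, was at 50.6, 52.6 and 52.7 TPM in plastic control, 66.6, 71.4 and 67.6 in soft control and 92.2, 97.0 and 89.5 in YAP-HA libraries, with fold changes of 0.39 ± 0.06 (adjusted p = 0.000448), 0.43 ± 0.06 (adjusted p = 0.000181) and 0.83 ± 0.06 (adjusted p = 4.27e-06). IDI1, the isopentenyl isomerase, was at 71.8, 78.4 and 77.1 TPM, 106, 108 and 116 TPM and 134, 137 and 148 TPM, with 0.53 ± 0.06 (adjusted p = 0.000164), 0.34 ± 0.06 (adjusted p = 0.00158) and 0.87 ± 0.06 (adjusted p = 6.29e-06). FDPS, the farnesyl synthase, had the highest TPM of the sterol branch, at 351, 330.1 and 347 TPM, 419, 464 and 463 TPM and 587, 639 and 590.2 TPM, with 0.39 ± 0.06 (adjusted p = 0.000601), 0.43 ± 0.06 (adjusted p = 0.000243) and 0.82 ± 0.06 (adjusted p = 5.86e-06). In each of MVD, IDI1 and FDPS every soft control library lay above every plastic one and below every YAP-HA one. MVK, the mevalonate kinase, had the same order with fold changes of 0.39, 0.20 and 0.59, of which the second was lost without YAP-HA replicate 2 (adjusted p = 0.055, limma) and with centred libraries (adjusted p = 0.0887).

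**Figure D2:**
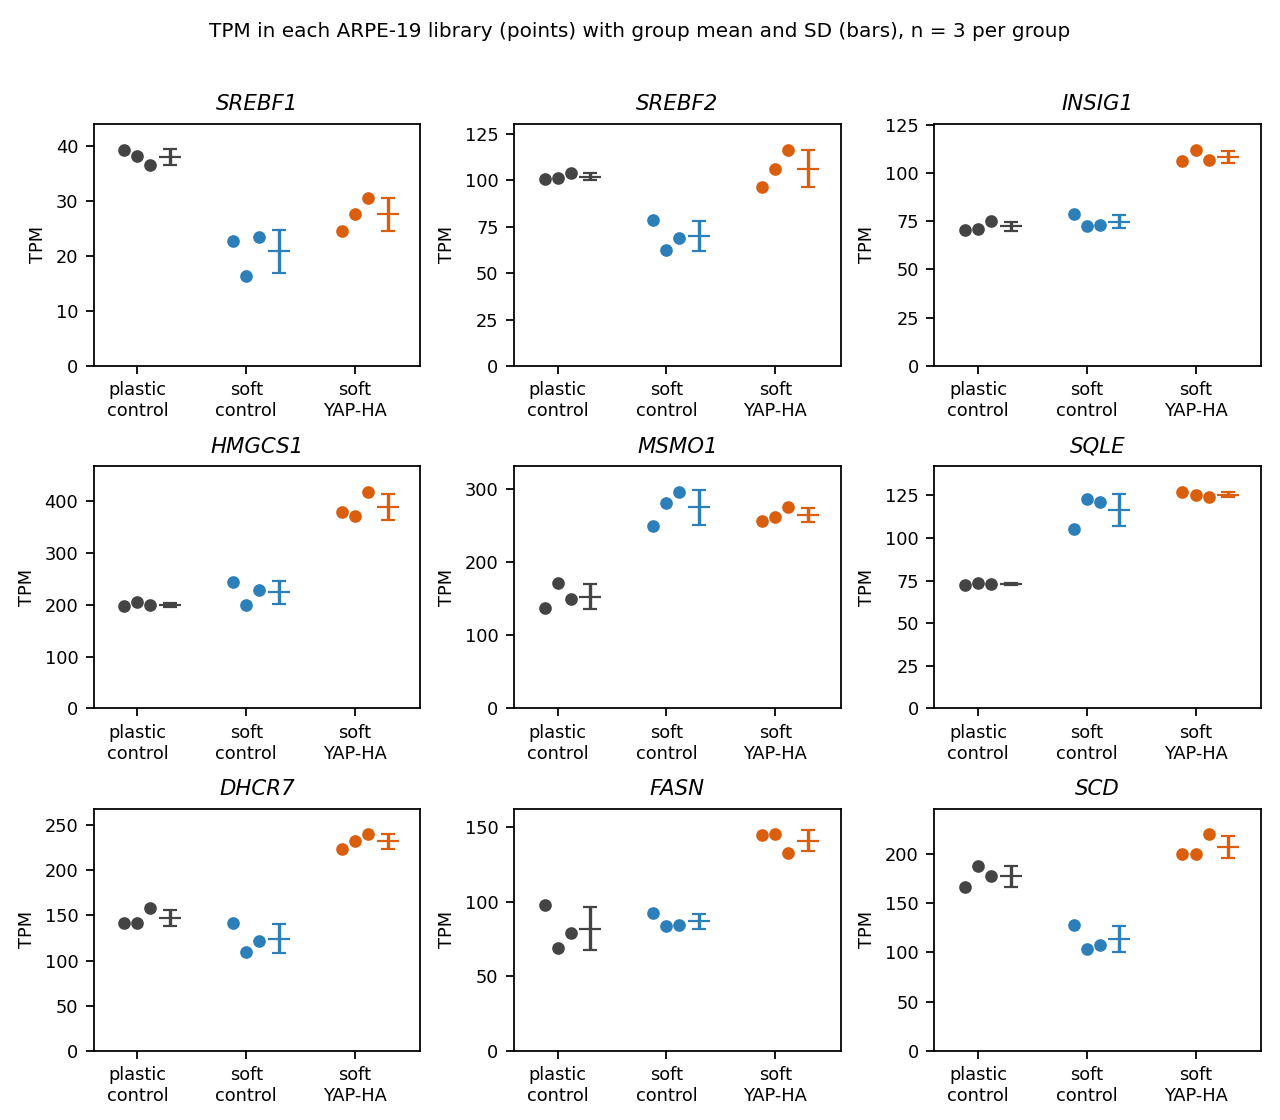
TPM (y axis from 0) of 9 synthesis genes in each of the 3 plastic control, 3 soft control and 3 YAP-HA libraries (points), with group mean and SD (bars). SREBF1, SREBF2 and SCD are lowest in soft control, MSMO1 and SQLE are higher in both soft gel groups than on plastic, and INSIG1, HMGCS1, DHCR7 and FASN are highest in YAP-HA libraries.

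From squalene to cholesterol, several members lay higher in both gel groups than on plastic. SQLE, the squalene epoxidase, was at 72.1, 73.6 and 73.0 TPM in plastic control, 105, 123 and 121 in soft control and 127, 125 and 124 in YAP-HA libraries. Both gel groups lay above plastic control, with fold changes of 0.66 ± 0.06 (adjusted p = 4.44e-05) for soft control and 0.77 ± 0.06 (adjusted p = 1.36e-05) for YAP-HA. Between the gel groups the value was 0.11 ± 0.06 (adjusted p = 0.179). MSMO1, the methylsterol oxidase, was at 138, 171 and 150.0 TPM, 249, 282 and 296 TPM and 257, 262 and 276 TPM, and it had the largest rise of all members in soft against plastic control, 0.85 ± 0.09 (adjusted p = 6.54e-05). Its other values were -0.06 ± 0.09 (adjusted p = 0.624) in YAP-HA against soft and 0.79 ± 0.09 (adjusted p = 9.77e-05) in YAP-HA against plastic control. NSDHL, a sterol dehydrogenase, was at 36.4, 34.1 and 36.0 TPM, 54.0, 55.0 and 55.3 TPM and 51.2, 55.0 and 50.6 TPM, with 0.61 ± 0.06 (adjusted p = 4.45e-05), -0.07 ± 0.06 (adjusted p = 0.369) and 0.54 ± 0.06 (adjusted p = 8.74e-05). For MSMO1 and NSDHL the gel groups overlapped and both stood above plastic control.

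FDFT1 (squalene synthase), CYP51A1 (lanosterol demethylase), HSD17B7 (ketosteroid reductase) and EBP (sterol isomerase) also rose on gel. Their fold changes were 0.42, 0.52, 0.39 and 0.49 in soft against plastic control. In YAP-HA against soft control they were 0.25, which passed, and 0.11, 0.10 and 0.17, which did not. SC5D, a sterol desaturase, passed the test in YAP-HA against plastic control alone (0.40), a call that was lost without plastic control replicate 1 or 3 or YAP-HA replicate 1 or 3. It passed in soft against plastic control without soft control replicate 2 (0.40) and with centred libraries (0.37), and in YAP-HA against soft control without soft control replicate 1 (0.28). TM7SF2, a sterol reductase, passed none (0.01, -0.17 and -0.17), but both YAP-HA values passed without YAP-HA replicate 2 (-0.26 and -0.25).

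LSS and DHCR7 went another way. LSS, the lanosterol synthase, was at 36.6, 39.3 and 39.1 TPM in plastic control, 38.6, 30.6 and 30.1 in soft control and 40.7, 46.3 and 48.2 in YAP-HA libraries. Its fold change was -0.21 ± 0.10 (adjusted p = 0.104) in soft against plastic, 0.44 ± 0.10 (adjusted p = 0.00519) in YAP-HA against soft and 0.22 ± 0.10 (adjusted p = 0.114) in YAP-HA against plastic control. Soft control replicate 1 lay apart from the other two, and without it the first value was -0.33 and passed (adjusted p = 0.00747, limma). DHCR7, the reductase of the last step, was at 142, 142 and 158 TPM in plastic control, 142, 109.7 and 122 in soft control and 223, 233 and 239.8 in YAP-HA libraries. It fell slightly in soft against plastic control, -0.25 ± 0.09 (adjusted p = 0.0385), where the highest soft library and the lowest plastic one were level at 142 TPM. This call was lost with centred libraries (-0.13, adjusted p = 0.129, limma) and without any 1 library but soft control replicate 1, at adjusted p-values of 0.0519 to 0.140. In YAP-HA cells it rose by 0.90 ± 0.09 (adjusted p = 2.37e-05) against soft control, the largest rise of all members in that comparison, and by 0.65 ± 0.09 (adjusted p = 0.000351) against plastic control. STARD4, a carrier that moves sterol between membranes, was lower in soft than in plastic control (-0.48, adjusted p = 0.00284, limma) and higher in YAP-HA than in soft control (0.48, adjusted p = 0.00263), and its value in YAP-HA against plastic control was 0.00.

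In the fatty acid branch the acetyl-CoA suppliers ACLY (citrate lyase) and ACSS2 (acetyl-CoA synthetase) did not pass in soft against plastic control (-0.22 and 0.00). Without soft control replicate 1 ACLY was lower there (-0.33, adjusted p = 0.00162, limma). Both rose in YAP-HA against soft control (0.67 and 0.33), and for ACSS2 the call was lost without soft control replicate 2 or 3 or YAP-HA replicate 2 or 3, at adjusted p-values of 0.0653 to 0.0913 (limma). ACACA, the acetyl-CoA carboxylase that commits carbon to fatty acids, was at 18.9, 17.5 and 17.8 TPM in plastic control, 13.8, 11.6 and 14.1 in soft control and 21.7, 22.2 and 21.2 in YAP-HA libraries. No groups overlapped, and the fold changes were -0.43 ± 0.08 (adjusted p = 0.0021), 0.68 ± 0.08 (adjusted p = 0.000112) and 0.25 ± 0.08 (adjusted p = 0.0403) in soft against plastic, YAP-HA against soft and YAP-HA against plastic control. The last of these was lost in all 6 fits that left out 1 library, at adjusted p-values of 0.0528 to 0.114 (limma). FASN, the synthase that builds the chain, was at 97.4, 68.9 and 79.2 TPM, 92.4, 83.6 and 84.0 TPM and 145, 145 and 132 TPM. The control groups overlapped, and YAP-HA lay above both, with 0.09 ± 0.11 (adjusted p = 0.496), 0.69 ± 0.11 (adjusted p = 0.000538) and 0.79 ± 0.11 (adjusted p = 0.000418). The first value depended on plastic control, since it was 0.23 without its replicate 1 (adjusted p = 0.0494, limma) and -0.02 without its replicate 2.

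SCD, which inserts the first double bond of a saturated chain, was at 167, 188 and 177 TPM in plastic control, 128, 103 and 108 in soft control and 200.4, 200.2 and 219.8 in YAP-HA libraries. Soft control was the lowest group and no groups overlapped. The fold changes were -0.65 ± 0.08 (adjusted p = 0.000245), 0.87 ± 0.08 (adjusted p = 2.36e-05) and 0.22 ± 0.08 (adjusted p = 0.0681) in the same comparisons, and the last of them passed with centred libraries (0.30, adjusted p = 0.00473, limma). The desaturases of polyunsaturated chains, FADS1 and FADS2, also fell in soft against plastic control (-0.41 and -0.56). FADS2 rose in YAP-HA against soft control (0.61), while FADS1 did not pass (0.19), except without soft control replicate 1 (0.30, adjusted p = 0.00502, limma). The elongase ELOVL6 did not pass in soft against plastic control (0.04) and rose against soft control (0.67) and against plastic control (0.71) in YAP-HA cells.

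Other genes of the pathway were taken from 3 lists that are not part of the set. Of 11 genes for SREBP processing and sterol handling, 0 rose and 9 fell in soft against plastic control, 6 rose and 1 fell in YAP-HA against soft control, and 2 rose and 4 fell in YAP-HA against plastic control. Of 6 genes for the sterol sensors LXR and their targets, 2 lay below the filter, and 2, 0 and 0 rose and 1, 2 and 1 fell in the same comparisons. Of 14 genes for fatty acid handling, 2 lay below the filter, and 4, 3 and 2 rose and 3, 2 and 0 fell. Over all genes tested, 22.6%, 24.5% and 14.2% rose and 27.9%, 23.9% and 20.2% fell in the same comparisons. Counts over lists this short, for LXR and fatty acid handling above all, are given as description only. The 4 largest changes called in soft against plastic control were in ACACB (-0.92 ± 0.29), a second acetyl-CoA carboxylase, LBR (-0.66 ± 0.08), a nuclear envelope protein with sterol reductase activity, the lipid phosphatase LPIN1 (-0.60 ± 0.11) and the cholesterol exporter ABCA1 (-0.53 ± 0.14). In YAP-HA against soft control they were in LBR (1.16 ± 0.08), the sterol-regulated membrane protein TMEM97 (1.01 ± 0.06), SCD5 (0.67 ± 0.09), a second stearoyl-CoA desaturase, and the cholesterol esterifying enzyme SOAT1 (0.67 ± 0.16). In YAP-HA against plastic control they were in TMEM97 (0.79 ± 0.06), the lipoprotein receptor VLDLR (-0.59 ± 0.10), ABCA1 (-0.55 ± 0.14) and LBR (0.50 ± 0.08). ABCA1 was low throughout, at 1.08 to 1.24 TPM on plastic and at most 0.65 TPM in the other groups. It passed the filter on low values only through plastic control, so the filter favoured its calls as lower than that group. They carry no weight as support. ABCA1 was also the 1 gene of the LXR list that fell in each comparison with plastic control. ACACB was low and scattered too, at 3.71, 3.74 and 4.81 TPM on plastic, 3.02, 0.83 and 1.63 in soft control and 2.66, 2.42 and 5.08 in YAP-HA libraries.

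In the old mice, no synthesis gene passed the test between TRULI and control. Of the 33 members, 0 rose and 0 fell (limma, adjusted p under 0.05), where 0.0198% of 15132 genes rose and 0.033% fell. At an unadjusted p under 0.05 there were 5 members, against 1810 genes in all, and they were Hmgcs1, Idi1, Cyp51, Scd1 and Elovl6, each with a positive fold change. An exact permutation test of 2 libraries against 2 cannot go below a p of 0.33. The fold change was positive for 29 of 33 members, with a median of 0.32 against 0.04 over all genes. Both TRULI libraries lay above both controls for 16 members and below both for 0, against 25.2% and 18.1% of all genes. TRULI replicate 1 was the highest of the 4 libraries for 23 of 33 members. This library lay above the control mean for 29 members, with a median of 0.47, and TRULI replicate 2 for 23, with a median of 0.11. Over all genes these libraries lay above the control mean for 53.1% and 57.1% of genes.

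Among the regulators, Srebf1 was at 158 and 190.0 TPM in the control libraries and 139 and 182 in the TRULI libraries. Its log2 fold change was -0.12 ± 0.18 (adjusted p = 0.855), and the groups overlapped. Srebf2 was at 41.3 and 34.0 TPM in the control libraries and 46.7 and 26.4 in the TRULI libraries, with TRULI replicate 1 highest and replicate 2 lowest of all 4, and a fold change of -0.09 ± 0.29 (adjusted p = 0.943). Insig1 was at 36.3 and 33.9 TPM in the control libraries and 58.0 and 37.4 in the TRULI libraries, where the groups did not overlap but replicate 2 lay near the controls, with 0.40 ± 0.24 (adjusted p = 0.575). In the sterol branch, Hmgcs1 was at 27.3 and 28.5 TPM in the control libraries and 46.5 and 36.3 in the TRULI libraries, with 0.54 ± 0.18 (adjusted p = 0.364). Idi1 was at 12.3 and 16.2 TPM in the control libraries and 25.3 and 20.4 in the TRULI libraries, with 0.65 ± 0.23 (adjusted p = 0.37). Lss was at 7.20 and 4.48 TPM in the control libraries and 9.21 and 11.0 in the TRULI libraries, the largest fold change of the set at 0.72 ± 0.29 (adjusted p = 0.425). In each of Hmgcs1, Idi1 and Lss both TRULI libraries lay above both controls.

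In the fatty acid branch, Fasn was at 12.3 and 9.94 TPM in the control libraries and 11.0 and 14.5 in the TRULI libraries, with overlapping groups and a fold change of 0.18 ± 0.24 (adjusted p = 0.846). Scd1 was at 30.2 and 28.9 TPM in the control libraries and 43.8 and 41.1 in the TRULI libraries, without overlap, with 0.51 ± 0.15 (adjusted p = 0.319). Scd2, the form with the higher TPM, was at 151 and 202 TPM in the control libraries and 245 and 203 in the TRULI libraries, with 0.35 ± 0.18 (adjusted p = 0.522). Elovl6 was at 17.0 and 20.7 TPM in the control libraries and 32.6 and 25.9 in the TRULI libraries, with 0.60 ± 0.21 (adjusted p = 0.367). Of these 4 genes, Scd1 had the most even TRULI libraries. Branch sums were 517 and 551 TPM in controls and 738.5 and 569 in TRULI libraries for the sterol branch, and 549.8 and 649 against 701 and 658 for the fatty acid branch.

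Marker genes of other cell types differed between the mouse libraries too. The largest list outside the RPE genes was that of 7 macrophage genes, at 12626 and 12467 TPM in controls and 13730 and 12036 in TRULI libraries. Its genes did not move together. Lyz2 was at 5661 and 5582 TPM in controls and 8380 and 7206 in TRULI libraries, while every other gene of the list was lower in both TRULI libraries. The summed TPM of 7 photoreceptor genes was 1325 and 666 in controls and 395 and 700.3 in TRULI libraries, that of 5 mural cell genes 300.4 and 358 against 533 and 831, and that of 4 melanocyte genes 3254 and 3507 against 4865 and 4485. Skeletal muscle genes summed to 166 TPM in control replicate 1 and to 14.5, 23.8 and 3.97 in control replicate 2 and the TRULI libraries. The 6 fibroblast genes summed to 2016 and 2363 TPM in controls and 2064 and 2700.5 in TRULI libraries. Of these, Col1a1, Col1a2 and Col3a1 were higher in both TRULI libraries, Pdgfra was lower, and Dcn and Lum overlapped. The endothelial and the Schwann cell sums overlapped between the groups. RPE genes summed to 26633 and 26660.4 TPM in controls and 30612 and 27706 in TRULI libraries. Ttr alone made up 14205 and 13516 against 17594 and 18382, and the other 8 RPE genes summed to 12428 and 13144 against 13018 and 9324, so that without Ttr TRULI replicate 2 was the lowest library and the rest lay close together. Of 5 adipocyte genes, summing to 59.4 and 73.0 against 52.5 and 49.9 TPM, Fabp4 made up nearly all, Plin1 was at 0.07 or less and Adipoq, Cidec and Lep were listed at 0 in all 4. The melanocyte list holds pigment genes, so its sum cannot be read as melanocytes apart from RPE cells. The part of these cell types in the members' values was not tested.

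**Figure D3:**
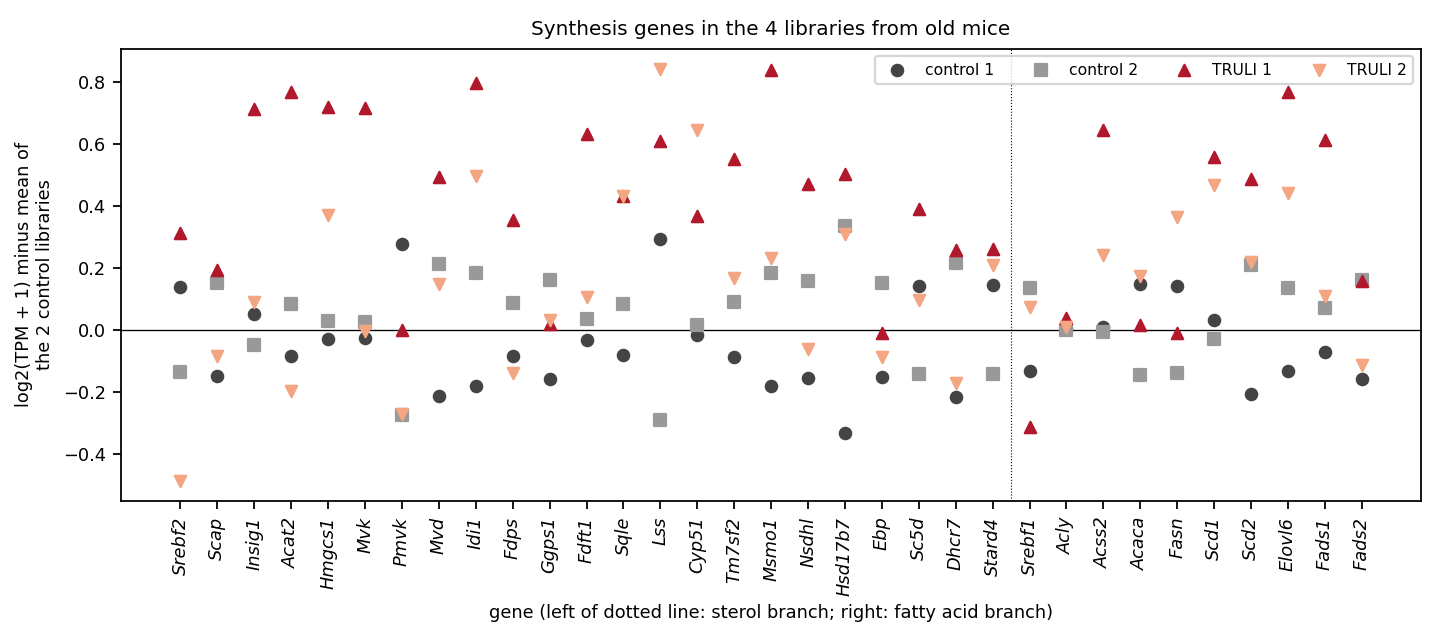
Log2(TPM + 1) minus the mean of the 2 control libraries (y axis) for each of the 33 mouse genes (x axis, sterol branch left of the dotted line) in 2 control and 2 TRULI libraries from old mice. TRULI 1 is the highest point for 23 of 33 genes, while TRULI 2 lies among or near the controls for many of them.

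In single mouse RPE cells, sterol synthesis transcripts were lower at 24 than at 3 months and fatty acid synthesis transcripts differed little in sum. RPE cells were taken as those with at least 4% of their UMIs (unique molecular identifiers, one per captured transcript) in Mitf, Rlbp1, Rpe65, Trpm3, Ttr and Tyr. They numbered 1886 of 15667 cells kept at 3 months and 5419 of 15198 at 24 months, with 2883 and 5397 cells between 2% and 8%, near the limit. Median depth was 10783 UMIs per cell at 3 months and 3887 at 24 months, and the summed UMIs were 26097241 and 43982972. Rgr and Lrat, RPE genes outside the gate, were at 13679 and 1645 CPM (UMIs of a gene scaled by all UMIs of the cells) at 3 months and 13731 and 1400.5 at 24 months, while the RPE channel gene Best1 was at 0.460 and 1.05. With 1 library per age there is no test, and age cannot be told apart from library. Intervals are exact 95% intervals and cover counting error only.

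Summed over 23 genes, the sterol branch was at 803 CPM (792 to 814) at 3 months and 609.7 CPM (602 to 617) at 24 months, a log2 ratio of -0.40 (-0.42 to -0.37). The counting interval lay below 0 for 20 of the 23 genes and included 0 for Ggps1, Lss and Ebp. Summed over 10 genes, the fatty acid branch was at 659 CPM (649.5 to 669) and 672 CPM (664 to 679), a log2 ratio of 0.03 (-0.000197 to 0.05). Its genes were divided, with 2 intervals above 0, 3 below and 5 including 0. The share of all genes with an interval that excluded 0 is not given here, so these interval counts are description only. Of all 33 members, 9 had a log2 ratio of at most -0.5 and 0 of at least 0.5, where 6.53% and 9.57% of 14759 genes did. Their median was -0.26, against -0.04 over all genes.

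Stard4, the sterol carrier, had the ratio farthest from 0 but few transcripts, 2.30 CPM (1.75 to 2.96) at 3 months and 0.841 CPM (0.592 to 1.16) at 24 months, or 60 and 37 UMIs, with a log2 ratio of -1.45 (-2.08 to -0.84). Msmo1, the methylsterol oxidase, came next with 78.4 CPM (75.1 to 81.9) at 3 months and 45.5 CPM (43.5 to 47.6) at 24 months and a log2 ratio of -0.79 (-0.87 to -0.70). Sqle, the squalene epoxidase, was at 29.3 CPM (27.3 to 31.5) at 3 months and 19.6 CPM (18.3 to 21.0) at 24 months, a log2 ratio of -0.58 (-0.72 to -0.44). These 3 genes were lower at 24 months beyond counting error at full depth.

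Mvd, the mevalonate decarboxylase, was at 13.2 CPM (11.8 to 14.7) at 3 months and 9.03 CPM (8.16 to 9.96) at 24 months, with a log2 ratio of -0.55 (-0.76 to -0.33), and Dhcr7, the last reductase, at 13.9 CPM at 3 months and 9.62 CPM at 24 months, with -0.53 (-0.74 to -0.33). Hmgcs1 was at 52.3 CPM (49.5 to 55.1) at 3 months and 36.5 CPM (34.7 to 38.3) at 24 months, with -0.52 (-0.62 to -0.41). Idi1 and Hsd17b7 had ratios of -0.51 (-0.64 to -0.39) and -0.51 (-0.73 to -0.29). The enzymes past -0.5 thus came from both the early and the late steps of the branch.

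Among the regulators, Srebf2 was at 44.8 CPM (42.2 to 47.4) at 3 months and 31.6 CPM (29.9 to 33.3) at 24 months, with a log2 ratio of -0.50 (-0.62 to -0.39). Insig1 was at 35.6 CPM (33.3 to 37.9) at 3 months and 25.8 CPM (24.3 to 27.3) at 24 months, with -0.47 (-0.59 to -0.34). Scap had a ratio of -0.16 (-0.25 to -0.08). Srebf1 went the other way, with 109.7 CPM (106 to 114) at 3 months and 139 CPM (136 to 143) at 24 months, a log2 ratio of 0.34 (0.28 to 0.41), so the 2 SREBP genes differed in direction.

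The fatty acid enzymes showed smaller differences. Fasn was at 24.7 CPM (22.8 to 26.7) at 3 months and 21.1 CPM (19.7 to 22.5) at 24 months, with a log2 ratio of -0.23 (-0.37 to -0.08). Scd2 was at 166 CPM (161 to 171) at 3 months and 174 CPM (170.1 to 178) at 24 months, with 0.07 (0.01 to 0.12), and Scd1 was at 3.83 CPM at 3 months and 3.46 CPM at 24 months, with an interval that included 0, -0.15 (-0.52 to 0.23). Fads1 had the largest ratio of the branch, -0.50 (-0.58 to -0.41), and was followed by Srebf1 and Fasn. The intervals of Acly, Acss2, Acaca and Fads2 included 0, with log2 ratios from -0.02 to 0.13.

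Other markers moved with age in the gated cells. Macrophage genes, 7 in all, summed to 167 CPM at 3 months and 678 at 24 months, and 4 melanocyte genes to 1179 and 443 CPM. In the median cell, they took 0.00527% and 0.0704% of UMIs (macrophage) and 0.126% and 0.0272% (melanocyte). The melanocyte list holds pigment genes and cannot be read as melanocytes alone. At 24 months it was at 443 CPM in gated RPE cells and 111 CPM in cells with under 1% of UMIs in the RPE markers. At 3 months the values were 1179 and 1888 CPM. When cells with at least 0.1% of UMIs in either list were left out, 739 and 2740 cells remained, the macrophage sum was 53.1 and 198 CPM and the melanocyte sum 577 and 345. The sterol branch ratio was then -0.40 and that of the fatty acid branch 0.07. For the melanocyte list the median cell lay above the limit at 3 months and below it at 24 months. The step thus took gated RPE cells unequally by age, and it cannot tell whether other cells contributed. The libraries shared 381 cell barcodes, 14 of them gated RPE cells in both, and without barcodes found in both libraries the ratios were -0.40 and 0.02.

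Depth was matched by thinning each cell to 1000 UMIs, which left 1483 and 4120 cells and dropped 403 and 1299 shallower ones. The sterol branch ratio was then -0.42 (-0.52 to -0.32) and the fatty acid branch ratio 0.05 (-0.05 to 0.16). Single genes rested on fewer UMIs. Msmo1 was at -1.21 (-1.53 to -0.88), Insig1 at -0.76 (-1.25 to -0.27), Sqle at -0.62 (-1.15 to -0.07) and Srebf2 at -0.47 (-0.87 to -0.07), and Srebf1 at 0.29 (0.05 to 0.54). Hmgcs1, at -0.07 (-0.46 to 0.35), and Dhcr7, at -0.17 (-0.96 to 0.68), came closer to 0, and Fasn changed sign, at 0.18 (-0.39 to 0.78). These 3 intervals included 0, as did those of Mvd, -0.51 (-1.26 to 0.29), Scd1, -0.47 (-1.70 to 0.86), Scd2, 0.08 (-0.12 to 0.30), and Stard4, -1.80 (-4.13 to 0.42), which was left with 5 and 4 UMIs. As a mean over cells in place of summed UMIs, which gives each cell the same weight, the ratio was -0.30 for Sqle, -0.17 for Mvd and -0.80 for Srebf2, and Scd2 changed sign (-0.07).

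**Figure D4:**
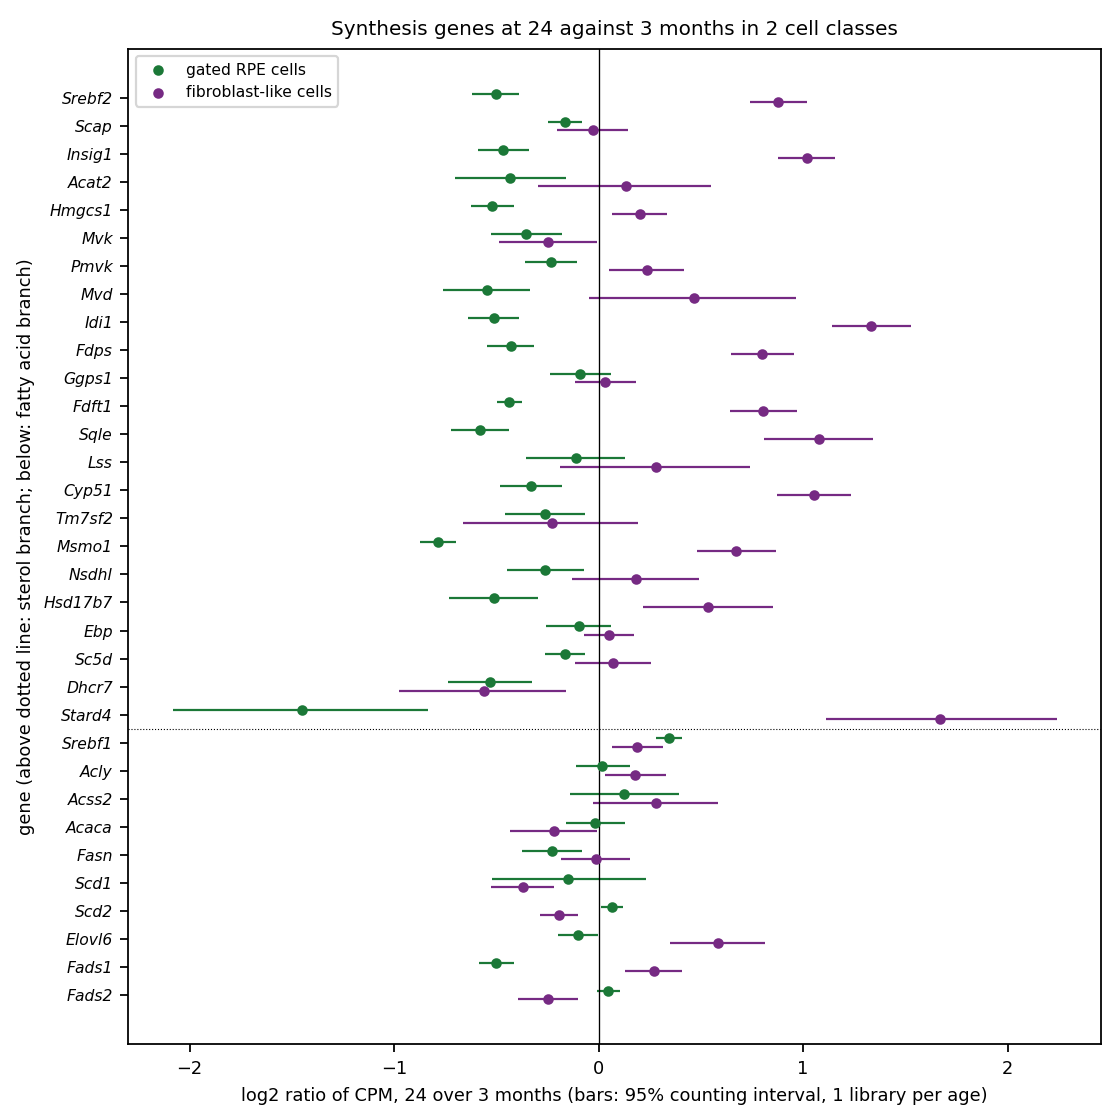
Log2 ratio of CPM at 24 over 3 months (x axis, bars are exact 95% counting intervals) for each of the 33 mouse genes (y axis, sterol branch above the dotted line) in gated RPE cells (green) and fibroblast-like cells (purple), 1 library per age. Every sterol branch point of the RPE cells lies left of 0, and most points of the fibroblast-like cells lie right of it.

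Fibroblast-like cells of the same 2 libraries, those with under 1% of UMIs in the RPE markers and at least 1% in 6 fibroblast genes, went in the other direction for the sterol branch. There were 5519 at 3 months and 2837 at 24 months, with median depths of 5705 and 4701 UMIs, and 6084 and 3375 cells lay between 0.5% and 2%. Their sterol branch summed to 416 CPM (409 to 423) at 3 months and 574 CPM (562 to 587) at 24 months, a log2 ratio of 0.46 (0.42 to 0.50), with 12 intervals above 0, 2 below and 9 including 0. The fatty acid branch was at 382 and 376 CPM, a ratio of -0.02 (-0.07 to 0.02). Idi1, at 12.9 CPM (11.7 to 14.1) at 3 months and 32.4 CPM (29.5 to 35.5) at 24 months, had a log2 ratio of 1.33 (1.14 to 1.53), and Srebf2, at 29.0 CPM (27.2 to 30.9) at 3 months and 53.3 CPM (49.6 to 57.3) at 24 months, one of 0.88 (0.74 to 1.02). Mvk and Dhcr7 were the 2 sterol genes with intervals below 0. The RPE markers of the gate took 0.265% of the UMIs of these cells at 3 months and 0.462% at 24 months, with Ttr at 2172 and 3884 CPM and Rgr at 442 and 801 CPM. In macrophage-like cells they took 0.252% and 0.392%, so RPE transcripts in other cells were higher at 24 months in both classes, and their part in the ratios was not tested. Of the 33 members, 14 had an interval below 0 in RPE cells and above 0 in fibroblast-like cells (12 of the sterol branch, with Fads1 and Elovl6), and 1, Scd2, had the reverse. Shares of all genes with such intervals are not given here, so the interval counts of this paragraph are description only. In macrophage-like cells, 238 and 419 in number, the sterol branch was at 594 and 673 CPM, a ratio of 0.18 (0.06 to 0.30). In 181 and 33 endothelial-like cells it was at 458 and 449.6 CPM, a ratio of -0.03 (-0.43 to 0.36). Differences between cell classes in their change with age were not tested, since each age had 1 library.

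Within a library, more sterol branch genes were higher in RPE than in fibroblast-like cells at 3 months than at 24 months. Shares and medians over all genes are not given for this comparison, so its counts are description only. At 3 months 20 of 23 genes were higher in RPE cells beyond counting error and 2 lower, with a median log2 ratio of 0.92. At 24 months 10 were higher and 9 lower, with a median of 0.13. The fatty acid genes were at 6 higher and 3 lower of 10 with a median of 0.41 at 3 months, and at 6 and 4 with a median of 0.35 at 24 months. These shifts are the other face of the age ratios above and no separate evidence.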

How the data were processed

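Per the labels and the methods of the study, the single-cell tables deposited by the authors hold UMI counts per barcode (Cell Ranger 6.0.1, mm10), while the bulk tables were deposited as TPM. The submitters' processing notes name STAR 2.7.3a and 2.7.10b, RSEM, GRCh38 and GRCm39. All value columns were mapped to samples (0 were not). The 3-month library carries a condition label reading old beside its age and title of 3 months, and was taken as 3 months. TPM were analysed as log2(TPM + 1) with limma 3.58.1 in R 4.3.3 (trend on), for genes that reached a TPM of 1 in 3 or more of 9 ARPE-19 or in 2 or more of 4 mouse libraries. The study's methods do not describe the bulk tables. Cells needed 200 or more genes, no more than 10% of UMIs from mitochondrial genes and none from hemoglobin genes, following the study's thresholds, whose wording on hemoglobin was read as removing cells that have it. Doublets were scored with Scrublet and kept (125 and 333 gated RPE cells lay above the threshold). UMIs were summed over cells and given as CPM, using scanpy 1.11.5, pandas 2.3.3, scipy 1.17.1 and numpy 2.4.6 in Python 3.11.15. The fits were tested on simulated data.

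Values in every library and full statistics are given for SREBF1, SREBF2, SCAP, INSIG1, HMGCS1, SQLE, LSS, FASN and SCD and, in each ARPE-19 comparison, the 6 called members with the largest change. In the mouse bulk libraries this holds for Srebf1, Srebf2, Insig1, Hmgcs1, Fasn, Scd1, Scd2 and the 4 largest changes, and in RPE cells for the same genes and the 6 largest ratios. Of other pathway genes the 4 largest called changes are named. The members and lists were chosen with earlier results of these data known. Alternatives were other pseudocounts, filters, scalings, gates, doublet and depth handling, a replicate block and leaving out each replicate.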

Additional observations from a re-analysis of the deposited data

Results flagged for a closer look

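Between the 3-month and 24-month libraries the sterol branch went in opposite directions in gated RPE and fibroblast-like cells. Its log2 ratio of summed CPM, 24 over 3 months, was -0.40 in gated RPE cells and 0.46 in fibroblast-like cells. In the other classes compared it was 0.18 (0.06 to 0.30, macrophage-like) and -0.03 (-0.43 to 0.36, endothelial-like). For Srebf2 the log2 ratios were -0.50 in gated RPE cells and 0.88 in fibroblast-like cells. Insig1 had -0.47 and 1.02, and Hmgcs1 had -0.52 and 0.20. Among later enzymes, Sqle had -0.58 and 1.08 and Msmo1 -0.79 and 0.67. The carrier Stard4 had -1.45 and 1.67, on 60 and 37 UMIs in the RPE cells. Scd2, of the fatty acid branch, had the opposite arrangement, 0.0651 in gated RPE cells and -0.19 in fibroblast-like cells, while Fads1 (-0.50 and 0.27) and Elovl6 (-0.10 and 0.58) of that branch went as the sterol genes did. In all, 14 of 33 members lay below 0 in RPE cells and above 0 in fibroblast-like cells, and 1 the reverse, with no share over all genes to set beside them. Each of the results for RPE and fibroblast-like cells was singled out because these 2 classes had counting intervals on opposite sides of 0. The difference was not tested, because each age had 1 library and the classes came from the same libraries. The RPE cells had median depths of 10783 and 3887 UMIs and the fibroblast-like cells 5705 and 4701, and the melanocyte list fell from 703 to 63.1 CPM in the fibroblast-like cells while the macrophage list went from 215 to 610.2 and the RPE markers of the gate from 0.265% to 0.462% of UMIs. Their part in the result was not tested.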

How the results depend on the processing

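Counts of members called were within 1.5 times the reported count under all alternatives, with 1 exception. By branch, the 4 sterol genes lower in soft against plastic control were 2 without a filter or with centred libraries and 2 to 5 when 1 library was left out, and the 5 fatty acid genes higher in YAP-HA against plastic control were 3 without a filter or with the replicate block and 3 to 4 when 1 library was left out. In YAP-HA against plastic control 1 member (SREBF1) was lower, against 0 without a filter on low values, 2 with only the compared groups in the fit and 0 to 1 when 1 library was left out. Leaving out 1 library gave 14 to 16 higher and 7 to 11 lower in soft against plastic control, 17 to 22 and 2 to 3 in YAP-HA against soft control, 18 to 19 higher in YAP-HA against plastic control, and 0 for TRULI. With the replicate number as a block the counts were 14 and 8, 20 and 2, 19 and 1, and 0 and 0 in that order. In ARPE-19 same-numbered libraries correlated at -0.12 to 0.09 in their deviations from group means, and differently numbered ones at -0.16 to 0.16, so no pairing was seen. In mice same-numbered libraries correlated at 0.0558 and differently numbered ones at -0.0558. With 2 libraries a group the centring fixes these to 1 size, so they cannot judge pairing.

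Signs turned for FASN in soft against plastic control without plastic control replicate 2 (-0.0207, with up to 0.23 without another library), for SREBF2 in YAP-HA against plastic control without YAP-HA replicate 3 (-0.0114, up to 0.12), and in TRULI against control for Srebf2 (0.0491 without control 1, 0.31 without TRULI 2, -0.49 without TRULI 1), Srebf1 (0.0128 without control 2, 0.0735 without TRULI 1, -0.32 without TRULI 2) and Fasn (-0.0123 without TRULI 2, 0.36 without TRULI 1). In RPE cells they turned for Fasn with thinned cells (0.18) and Scd2 as a mean over cells (-0.0680). The sterol branch ratio was -0.37 with a gate of 2%, and the fatty acid branch ratio was -0.0619 as a mean over cells and 0.0736 without cells high in macrophage or melanocyte genes, an alternative chosen after seeing the data, as was leaving out shared barcodes. Over all 10 alternatives the sterol ratio ranged from -0.42 to -0.37. The causes were not tested. With 2 libraries a group the TRULI comparison called 3 genes higher and 5 lower over the whole table, and TPM give no depth from which to judge single libraries.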
